A study of Homo sapiens with 6 samples.

Results

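Ubiquitin-specific proteases (USPs) are the enzymes that take ubiquitin off other proteins, and their transcripts were followed here in LY2 cells with and without CDK12 knockdown. The genes were taken by symbol, as every gene of the expression table named USP and a number, leaving out USP18 and hyphenated symbols. This gave 62 of the 17939 genes in the table, and 45 of them averaged 1 FPKM or more over the libraries and so entered the test, which covered 11533 genes. FPKM is a count of sequenced fragments scaled by transcript length and by the mapped total of a library, so that levels can be compared between genes. LY2 is an estrogen receptor-positive, tamoxifen-resistant human breast cancer cell line, and all libraries came from this 1 line. The siCDK12 group (3 libraries) was transfected at 30 nmol/L with siRNAs to CDK12, a kinase that acts on elongating RNA polymerase II. The siCtrl group (3 libraries) received the same amount of siRNAs without a target. Per the study's methods both groups were deprived of serum and kept without 4-hydroxytamoxifen before transfection, and RNA was collected 48 hours after it from cultures described as biological replicates.

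Ubiquitin is joined to proteins by E1, E2 and E3 enzymes, and the chain it forms marks a protein for the proteasome, for sorting at membranes or for a change of partner. USPs are cysteine proteases and form the largest family of deubiquitinases. Members differ in their substrates: some act on histones, some on the DNA damage response or on p53 and its regulator MDM2, some on signalling receptors, and some recycle ubiquitin at the proteasome.

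The targeted gene was checked first. CDK12 had 2.23, 2.83 and 2.44 FPKM in siCDK12, against 11.17, 10.7 and 10.3 FPKM in siCtrl, and the groups did not overlap (log2 fold change -2.06, SE 0.0852, limma adjusted p = 3.17e-07). All 6 luminal epithelial markers reached 1 FPKM, and their sum ranged from 4850 to 4970 FPKM in siCDK12 and from 4470 to 4510 FPKM in siCtrl, with GATA3, KRT18 and KRT8 called higher, ESR1 called lower and KRT19 and EPCAM not called. Leukocyte and endothelial markers stayed below 1 FPKM. Of the 4 basal markers KRT14 was at 0 in every library, and 2 reached 1 FPKM, TP63 (called lower) and ACTA2 (not called). The basal sum ranged from 10.2 to 10.3 FPKM in siCDK12 and from 9.8 to 10.6 FPKM in siCtrl. Of the 4 fibroblast markers COL1A1 alone reached 1 FPKM and was called higher, at 10.9 ± 0.318 FPKM in siCDK12 and 7.93 ± 0.45 FPKM in siCtrl (SD, n = 3 each). COL1A2, PDGFRB and LUM stayed at or near 0. The part of these markers in the results below was not tested. Since the RNA came from whole cultures, a change in the share of cells cannot be told apart from a change in RNA per cell.

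Most of the family was expressed in LY2 cells, over a wide range of levels. The most abundant was USP10, which removes ubiquitin from p53 in the cytoplasm, at 96.45, 92.82 and 96.99 FPKM in siCDK12 and 94.56, 92.39 and 91.31 FPKM in siCtrl. USP7, which stabilises MDM2 and p53, followed with 73.82, 77.53 and 76.98 FPKM in siCDK12 and 78.57, 77.1 and 72.92 FPKM in siCtrl. USP22, the deubiquitinase of the SAGA transcription complex, had 77.5, 77.62 and 74.93 FPKM in siCDK12 and 76.49, 74.09 and 73.34 FPKM in siCtrl. In all 3 genes the groups overlapped. USP39, a splicing factor that lacks the catalytic residues, had 72.33, 71.27 and 70.14 FPKM in siCDK12 and 69.64, 72.53 and 71.12 FPKM in siCtrl. USP8, which acts on receptors at endosomes, had 70.11, 71.47 and 71.88 FPKM in siCDK12 and 72.1, 70.72 and 66.35 FPKM in siCtrl. These 2 genes also overlapped between groups, and none of the 5 passed the test (log2 fold changes between -0.00 and 0.04, limma adjusted p from 0.401 to 0.987).

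In all, 9 USP genes had a mean of at least 40 FPKM, 13 lay between 10 and 40 FPKM, and 23 lay between 1 and 10 FPKM. USP49, a histone H2B deubiquitinase, was the lowest tested member at 1.19 ± 0.104 FPKM in siCDK12 and 1.13 ± 0.125 FPKM in siCtrl (SD, n = 3 each). Neighbours in the order of levels were often not separable: in the siCtrl order, 25 of the 44 neighbouring pairs overlapped in their 3 libraries. The order itself was nearly the same in both groups (Spearman's rho 0.994 over the 45 genes, whose means come from the same 6 libraries). The largest shift of rank was that of USP4, which was the 15th most abundant tested USP gene in siCDK12 and the 21st in siCtrl.

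**Figure D1:**
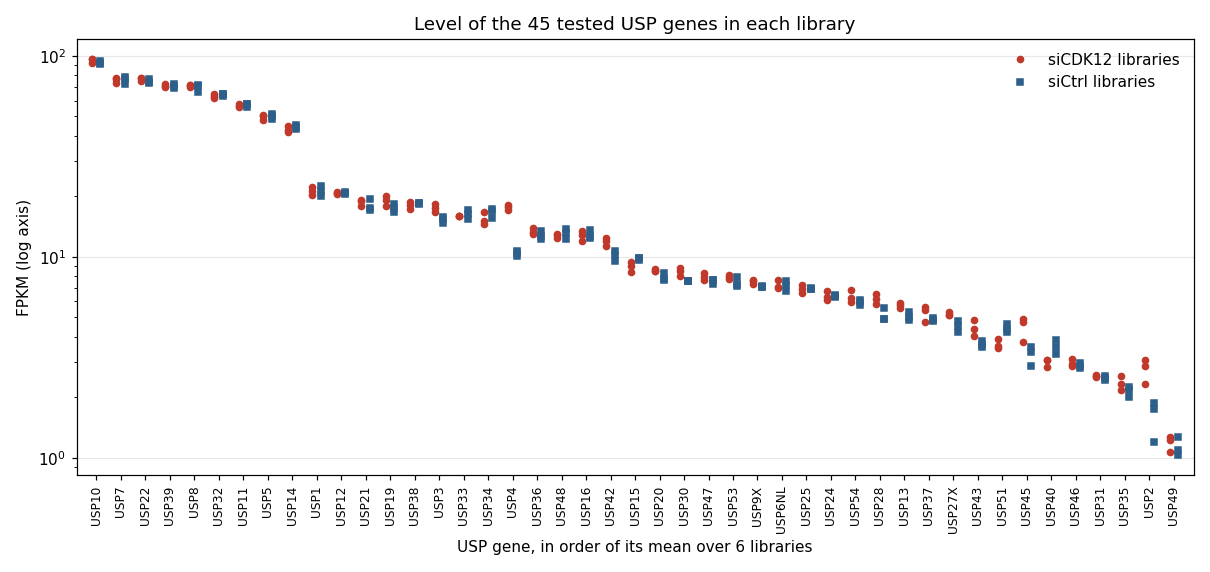
Level of each of the 45 tested USP genes in FPKM (log axis), ordered by mean; red circles are the 3 siCDK12 libraries and blue squares the 3 siCtrl libraries. Levels run from above 90 FPKM for USP10 to about 1 FPKM for USP49, and among genes above 10 FPKM the groups of USP4 lie furthest apart.

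The other 17 genes were too low to test. USP6, a hominoid-specific relative of USP32, lay between 0.43 and 0.56 FPKM in the 6 libraries. USP29, USP44 and USP50 did not exceed 0.05 FPKM in any library. The 13 USP17-like genes are near-identical copies among which fragments cannot be placed with certainty, and none exceeded 0.1 FPKM.

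CDK12 knockdown changed few USP transcripts. Of the 45 tested genes, 7 were higher with siCDK12 (USP4, USP2, USP42, USP3, USP45, USP28 and USP43) and 1, USP51, was lower, while 37 did not pass the test (limma on log2(FPKM + 0.1), adjusted p under 0.05). This was 17.8% of the family, where 28.3% of all tested genes were called, 16.1% higher and 12.3% lower. In this fit the share of calls in the family was thus not above that of the whole table. Calls higher were about as frequent as over all tested genes, and calls lower were less frequent. With no variance trend in the fit the family share was the larger, with 12 USP genes called (26.7%), beside 23.6% of all tested genes. Of these 12 genes 10 were higher and 2 lower, where 1524 of all 11533 tested genes were higher and 1202 lower. Over all tested genes, 56.7% of calls were rises, a split that turned to 44.9% with median-ratio scaling and 49.4% with quantile normalization, while the USP counts with either scaling were 6 higher and 2 lower. Without siCtrl replicate 2 the family had 4 genes higher and none lower, against 6 or 5 higher without any other library. Without siCDK12 replicate 1 or 2 none was lower. The share called over all tested genes also fell with 1 library left out, to between 19.7% and 24.3%, beside 8.89% to 15.6% of USP genes. Without siCtrl replicate 2 these shares were 21.2% and 8.89%.

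The typical USP gene moved little. The median log2 fold change over the 45 genes was 0.04, beside 0.03 over all tested genes, and the median size was 0.07, beside 0.10. In 27 genes (60.0%) the fold change lay within 0.1 of 0 on the log2 scale, beside 48.4% of all tested genes. The siCDK12 and siCtrl libraries did not overlap in 15 USP genes (33.3%), beside 43.1% of all tested genes. At an unadjusted limma p under 0.05, 11 USP genes were higher (24.4%, beside 23.6% of all tested genes) and 3 were lower (6.67%, beside 16.5%).

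**Figure D2:**
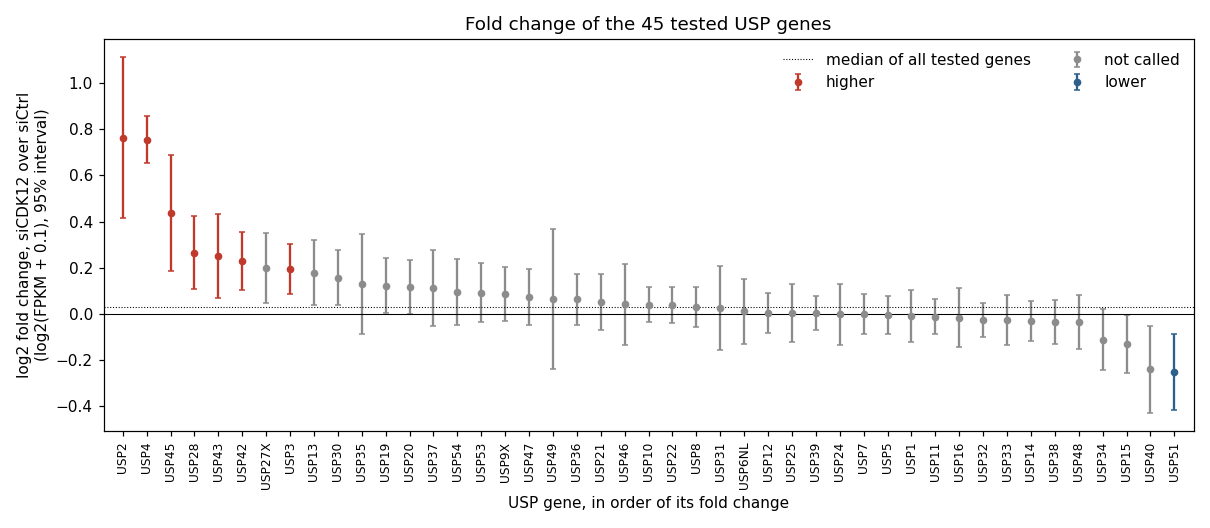
Log2 fold change of siCDK12 over siCtrl on the log2(FPKM + 0.1) scale for the 45 tested USP genes, with 95% limma intervals (n = 3 libraries a group); red is called higher, blue called lower, grey not called, and the dotted line is the median of all tested genes (0.03). USP2 (0.76) and USP4 (0.75) stand at the top, USP51 (-0.25) at the bottom, and most members lie near 0.

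None of the 9 USP genes of at least 40 FPKM was called by limma (0 at an unadjusted p under 0.05), while 28.0% of all tested genes at that level were. Their log2 fold changes lay between -0.03 and 0.04, and their 95% intervals reached no further than 0.12, or 1.08-fold. Between 10 and 40 FPKM, 3 of 13 USP genes were called (23.1%, beside 30.8% of all genes), and between 1 and 10 FPKM 5 of 23 (21.7%, beside 26.3%). Among the 37 genes that did not pass, 32 had a 95% interval that stayed within 0.32 on the log2 scale, or 1.25-fold, in either direction. The intervals of USP13, USP27X, USP35, USP40 and USP49 reached further, up to 0.43 for USP40.

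USP4 showed the most certain change of the family. USP4 (chromosome 3, 49277144 to 49340053, GRCh38) is a deubiquitinase of the TGF-beta type I receptor and of several regulators of p53 and NF-kappaB. It stood at 17.69, 18.13 and 17.13 FPKM in siCDK12, against 10.65, 10.5 and 10.13 FPKM in siCtrl. Every siCDK12 library was well above every siCtrl library, with means of 17.7 ± 0.501 FPKM in siCDK12 and 10.4 ± 0.268 FPKM in siCtrl (SD, n = 3 each). USP4 rose 1.69-fold (log2 fold change 0.75, SE 0.0465, limma adjusted p = 3.46e-06). Permuting the libraries gave an exact two-sided p of 0.1, the lowest possible with 3 against 3. The call held in all 16 alternatives, with adjusted p between 1.34e-06 and 0.000254. Of its exon bases, 1.21% were shared with C3orf62 on the same strand.

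USP4, USP11 and USP15 are paralogs with the same domain order, and the rise of USP4 was not matched by a call in either relative. USP15, which acts on SMADs and on the same TGF-beta receptor complex, had 9.47, 8.4 and 9.04 FPKM in siCDK12 and 9.62, 9.9 and 9.91 FPKM in siCtrl. Its libraries did not overlap, but it was not called (log2 fold change -0.13, limma adjusted p = 0.112). USP11, which acts in repair by homologous recombination, had 57.54, 55.79 and 56.66 FPKM in siCDK12 and 57.98, 57.82 and 55.51 FPKM in siCtrl, with overlap (log2 fold change -0.01, limma adjusted p = 0.846). USP4 and USP15 were thus close to equal in siCtrl and unequal in siCDK12. The log2 ratio of USP4 to USP15 was 0.8945, 1.101 and 0.9147 in siCDK12 and 0.1453, 0.08406 and 0.03136 in siCtrl, a difference of 0.883 (exact two-sided permutation p = 0.1, n = 3 each). The 3 paralogs together summed to 83.28 ± 1.25 FPKM in siCDK12 and 77.34 ± 1.55 FPKM in siCtrl (SD, n = 3 each), with no overlap.

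USP2 rose by a like factor at a much lower level. USP2 (chromosome 11, 119355215 to 119381690, GRCh38) stabilises MDM2 and cyclin D1. It had 2.88, 2.34 and 3.07 FPKM in siCDK12, against 1.2, 1.74 and 1.87 FPKM in siCtrl. The groups did not overlap, but the spread within each was wide, with means of 2.76 ± 0.379 FPKM in siCDK12 and 1.6 ± 0.355 FPKM in siCtrl (SD, n = 3 each). The 1.7-fold rise (log2 fold change 0.76, SE 0.159, limma adjusted p = 0.00517) was called in all 15 alternatives, with adjusted p between 0.00311 and 0.0282. The antisense gene USP2-AS1 covers 25.2% of the exon bases of USP2, and the strandedness of the libraries is not given in the sources used here, so fragments of the pair cannot be told apart.

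The windows just before a RefSeq start site are shown for USP4 and USP2, the 2 largest rises. That of USP15, a paralog of USP4 that was not called, is shown beside them. Each is the 250 bases before the RefSeq start (GRCh38.p14) on the gene's own strand, 5′ to 3′. Capitals mark GC boxes, spelled GGGCGG when read along the gene and CCGCCC when the motif lies on the opposite strand. The windows were also searched in both directions for the CCAAT box, whose reverse complement is ATTGG, and for the TATA box, taken as the letters TATAAA or, when reversed, as TTTATA, and these motifs do not overlap the GC box.
USP4 (chr3:49340054-49340303, minus strand): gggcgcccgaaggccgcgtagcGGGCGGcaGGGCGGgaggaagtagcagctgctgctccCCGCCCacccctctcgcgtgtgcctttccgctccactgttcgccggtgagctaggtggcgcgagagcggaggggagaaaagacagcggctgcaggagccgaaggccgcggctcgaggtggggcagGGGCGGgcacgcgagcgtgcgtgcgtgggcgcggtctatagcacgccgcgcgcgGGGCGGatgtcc
USP2 (chr11:119364209-119364458, minus strand): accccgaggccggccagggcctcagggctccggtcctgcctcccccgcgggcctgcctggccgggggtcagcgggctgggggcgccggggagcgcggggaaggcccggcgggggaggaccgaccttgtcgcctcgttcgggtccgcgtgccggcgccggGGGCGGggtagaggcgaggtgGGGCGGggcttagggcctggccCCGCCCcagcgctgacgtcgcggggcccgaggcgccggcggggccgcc
USP15 (chr12:62260154-62260403, plus strand): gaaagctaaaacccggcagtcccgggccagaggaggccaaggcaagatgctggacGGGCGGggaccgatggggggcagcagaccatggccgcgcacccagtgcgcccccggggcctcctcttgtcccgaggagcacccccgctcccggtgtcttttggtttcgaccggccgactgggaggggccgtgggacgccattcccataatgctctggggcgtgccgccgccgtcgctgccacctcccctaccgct
The window of USP4 held 5 GC boxes and that of USP2 held 3, against 1 in that of USP15, and none of them held a CCAAT or TATA box. Their GC content was 74.0% for USP4, 83.2% for USP2 and 70.4% for USP15. The RefSeq start of USP2 lies inside the gene, at a short form, and levels given by gene do not show which start was used. A GC box is common in this family: 30 of the 37 tested USP genes with a RefSeq window had one (81.1%). Only 5 of the 7 genes called higher had a window, and USP51, called lower, had none. All of these 5 windows held a GC box, as did 25 of the 32 windows of genes not called. Of 9527 tested genes with a window 68.9% had one, and of all 27305 windows 42.3% had one. These matches describe letters and say nothing of which factor binds.

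**Figure D3:**
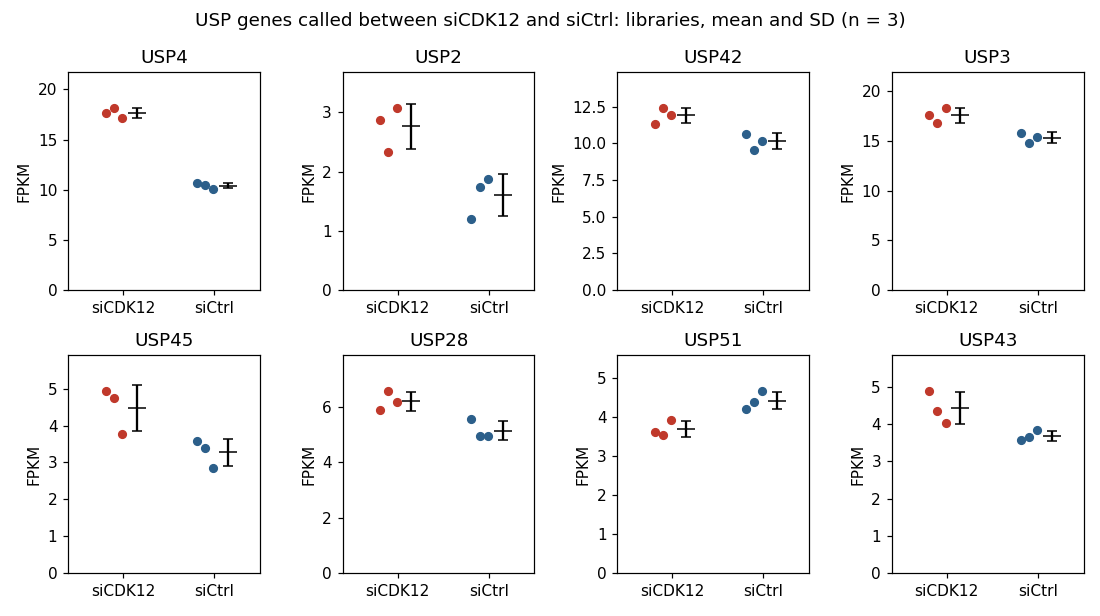
FPKM of the 8 called USP genes in each library, siCDK12 (red) left of siCtrl (blue) in each panel, with bars for mean and SD (n = 3); axes start at 0 and differ between panels. USP4 separates by far more than its spread, while USP43 separates narrowly, with 4.02 FPKM in its lowest siCDK12 library and 3.83 FPKM in its highest siCtrl library.

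Among the 9 tested members that act on histones and transcription, 2 rose and 1 fell, which is 33.3% beside 28.3% of all tested genes. The groups by role hold few genes each, and none of these shares was tested. USP42 (chromosome 7, 6081241 to 6161564, GRCh38), which removes ubiquitin from p53 and histone H2B, had 11.36, 12.4 and 11.96 FPKM in siCDK12, against 10.67, 9.57 and 10.19 FPKM in siCtrl. Its groups did not overlap, and it rose 1.17-fold (log2 fold change 0.23, SE 0.0570, limma adjusted p = 0.0129), a call lost without siCtrl replicate 2 (adjusted p = 0.0501; 0.0109 to 0.0501 over 16 alternatives). Its paralog USP36, a nucleolar deubiquitinase that stabilises MYC, had 13.27, 13.92 and 13.05 FPKM in siCDK12 and 12.32, 13.44 and 12.76 FPKM in siCtrl, with overlap and no call (log2 fold change 0.06, limma adjusted p = 0.385). USP3 (chromosome 15, 63504593 to 63594633, GRCh38), which deubiquitinates histones H2A and H2B, had 17.58, 16.82 and 18.27 FPKM in siCDK12, against 15.82, 14.74 and 15.39 FPKM in siCtrl. Again without overlap, USP3 rose 1.15-fold (log2 fold change 0.20, SE 0.0486, limma adjusted p = 0.013). The call of USP3 was lost without siCDK12 replicate 3 (adjusted p = 0.0571) or siCtrl replicate 2 (0.051), and the lowest of its 16 alternatives was 0.0107. The antisense gene USP3-AS1 covers 24.6% of the exon bases of USP3, so the same limit as for USP2 holds.

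USP22, USP27X and USP51 are close paralogs that compete for the same SAGA subunits, and they did not move together. USP51 (chromosome X, 55484616 to 55489848, GRCh38), a histone H2A deubiquitinase, had 3.62, 3.54 and 3.92 FPKM in siCDK12, against 4.21, 4.39 and 4.65 FPKM in siCtrl. It was the 1 USP gene that fell, to 0.84 of its siCtrl level (log2 fold change -0.25, SE 0.0747, limma adjusted p = 0.0286). This call was lost with no filter on low values (adjusted p = 0.0574), without siCDK12 replicate 1 (0.0745) or 2 (0.0844) and without siCtrl replicate 2 (0.0651) or 3 (0.0908), and the lowest value over 15 alternatives was 0.0161. A gene on the opposite strand covers 8.1% of the exon bases of USP51, so the limit given for USP2 holds here too. USP27X, the single-exon paralog on the same chromosome, had 5.12, 5.11 and 5.34 FPKM in siCDK12 and 4.54, 4.77 and 4.22 FPKM in siCtrl. Its groups did not overlap either, yet it missed the threshold (log2 fold change 0.20, limma adjusted p = 0.0503, 0.0371 to 0.156 over 15 alternatives). The log2 ratio of USP27X to USP51 averaged 0.4808 ± 0.041 in siCDK12 and 0.02892 ± 0.144 in siCtrl (SD, n = 3 each), a difference of 0.452 with no overlap (exact two-sided permutation p = 0.1). With USP22 far above both, the sum of the 3 genes was 85.57 ± 1.19 FPKM in siCDK12 and 83.57 ± 1.54 FPKM in siCtrl, with overlap (exact two-sided permutation p = 0.2, n = 3 each). Fragments from similar stretches of these copies were divided between them by the authors' estimation, which adds uncertainty to each level. USP7, USP16, USP21, USP22 and USP49 make up the rest of the chromatin members tested, and none of them was called (limma adjusted p from 0.43 to 0.987).

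In the DNA damage and replication group, 2 of 7 tested members rose (28.6%, beside 28.3% of all tested genes called). USP45 (chromosome 6, 99432325 to 99517846, GRCh38), which acts on the repair nuclease subunit ERCC1, had 4.92, 4.75 and 3.76 FPKM in siCDK12, against 3.58, 3.38 and 2.86 FPKM in siCtrl. The groups were apart, though siCDK12 replicate 3 and siCtrl replicate 3 were each the lowest of their group. USP45 rose 1.35-fold (log2 fold change 0.44, SE 0.114, limma adjusted p = 0.0159), and the call was lost with no filter (0.0562) and without siCDK12 replicate 1 (0.0629) or 2 (0.0566), within a range from 0.00465 to 0.0629 over 15 alternatives. Its paralog USP16, a histone H2A deubiquitinase needed in mitosis, had 12.03, 13.44 and 12.88 FPKM in siCDK12 and 13.67, 12.37 and 12.72 FPKM in siCtrl, with overlap (log2 fold change -0.02, limma adjusted p = 0.868). The log2 ratio of USP45 to USP16 was higher in siCDK12 by 0.452, without overlap (-1.501 ± 0.239 in siCDK12 and -1.953 ± 0.143 in siCtrl, SD, n = 3 each, exact two-sided permutation p = 0.1).

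USP28 (chromosome 11, 113797875 to 113875572, GRCh38), which stabilises MYC and takes part in the p53 response with TP53BP1, had 5.86, 6.54 and 6.17 FPKM in siCDK12, against 5.54, 4.93 and 4.93 FPKM in siCtrl. No siCtrl library reached the lowest siCDK12 library, and USP28 rose 1.2-fold (log2 fold change 0.27, SE 0.0713, limma adjusted p = 0.0184). Leaving out siCDK12 replicate 2 (adjusted p = 0.0665) or 3 (0.0512), or siCtrl replicate 2 (0.0617) or 3 (0.0527), ended the call, and the lowest value over 16 alternatives was 0.0125. USP25, the paralog of USP28 and a regulator of tankyrases and of innate immune signalling, had 6.64, 7.27 and 6.96 FPKM in siCDK12 and 6.98, 6.92 and 6.89 FPKM in siCtrl, with overlap and no call (log2 fold change 0.00, limma adjusted p = 0.964). The log2 ratio of USP28 to USP25 differed by 0.262 between siCDK12 and siCtrl, with no overlap (exact two-sided permutation p = 0.1, n = 3 each). The other members of the group were not called: USP1, which acts on FANCD2 and PCNA (log2 fold change -0.01), USP11 (-0.01), USP37 (0.11), USP47 (0.07) and USP48 (-0.04).

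The group around p53, MYC and the cell cycle held USP2, USP10, USP36 and USP43, of which USP2 and USP43 rose (2 of 4, beside 28.3% of all tested genes called and 16.1% called higher). Each gene was placed in a single group, so USP7, USP28 and USP42, described here with p53 or MYC, were counted elsewhere. The share thus depends on how genes were placed. USP43 (chromosome 17, 9645260 to 9729687, GRCh38), a less studied member linked to histone H2B, had 4.87, 4.36 and 4.02 FPKM in siCDK12, against 3.58, 3.64 and 3.83 FPKM in siCtrl. It was the least certain of the rises (1.19-fold, log2 fold change 0.25, SE 0.0826, limma adjusted p = 0.0424). Its call was lost in 9 of 15 alternatives, which were median-ratio scaling (adjusted p = 0.066), quantile normalization (0.0808), no filter (0.0874), a fit with the replicate number as a block (0.0695), and leaving out siCDK12 replicate 1 (0.149) or 2 (0.083) or siCtrl replicate 1 (0.107), 2 (0.0987) or 3 (0.053). USP31, the paralog of USP43 and an NF-kappaB regulator, had 2.57, 2.52 and 2.55 FPKM in siCDK12 and 2.45, 2.56 and 2.49 FPKM in siCtrl, with overlap (log2 fold change 0.03, limma adjusted p = 0.845).

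Of the 7 tested signalling members USP4 alone was called (14.3%, beside 28.3% of all tested genes). USP40, a little-studied member of the same group, came nearest among the others, with 3.08, 3.08 and 2.84 FPKM in siCDK12 and 3.87, 3.56 and 3.27 FPKM in siCtrl, without overlap (log2 fold change -0.24, limma adjusted p = 0.0585). It was called with median-ratio scaling (adjusted p = 0.0425), quantile normalization (0.0308) and no variance trend (0.0442), and without siCtrl replicate 3 (0.0389). USP34, a Wnt pathway deubiquitinase that acts on axin, had a log2 fold change of -0.11 (limma adjusted p = 0.193), and USP9X, a large deubiquitinase of MCL1 and other substrates, one of 0.09 (0.242). USP24, a relative of USP9X, was at -0.00 (0.993).

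Of the 5 proteasome and recycling members 0 were called by limma, beside 28.3% of all tested genes, and 2 were higher at an unadjusted p under 0.05. USP14, the deubiquitinase bound to the proteasome, had a log2 fold change of -0.03 (limma adjusted p = 0.622), and USP5, which takes apart free ubiquitin chains, one of -0.00 (0.942). USP13, the paralog of USP5, had 5.58, 5.87 and 5.74 FPKM in siCDK12 and 5, 5.33 and 4.83 FPKM in siCtrl, without overlap but short of the threshold (log2 fold change 0.18, limma adjusted p = 0.0588, and 0.0396 with no variance trend). USP19, which is anchored in the endoplasmic reticulum, was at 0.12 (0.115). USP25, described above with tankyrases and innate immune signalling, was also counted in this group.

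Among the 7 tested members that act on endosomes, the secretory pathway and organelles, 0 were called by limma, beside 28.3% of all tested genes, and 1, USP30, was higher at an unadjusted p under 0.05. USP30, a mitochondrial outer membrane enzyme that opposes mitophagy, had 8.79, 8.05 and 8.55 FPKM in siCDK12 and 7.57, 7.58 and 7.57 FPKM in siCtrl. The groups were apart, and the siCtrl libraries were within 0.01 FPKM of each other (log2 fold change 0.16, limma adjusted p = 0.052). It was called with no variance trend (adjusted p = 0.0442) and without siCDK12 replicate 2 (0.0415). USP20 and USP33, paralogs that act on receptors and on the centrosome, were at 0.12 (0.129) and -0.03 (0.713), and USP8, USP32, USP35 and USP38 were not called either.

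USP12 and USP46, which like USP1 need the cofactor WDR48 (UAF1) for full activity, stayed at log2 fold changes of 0.00 and 0.04 (limma adjusted p = 0.945 and 0.726). WDR48 itself was called higher, with 10.79, 11.12 and 11.15 FPKM in siCDK12, against 9.15, 9.52 and 10.19 FPKM in siCtrl (log2 fold change 0.20, limma adjusted p = 0.0212). USP53 and USP54, which were placed in a group of no or unlikely catalytic activity, had log2 fold changes of 0.09 each and were not called. Whether they are active as proteases was not tested. USP6NL carries a USP symbol but encodes a GTPase-activating protein for Rab proteins rather than a protease, and it was not called (log2 fold change 0.01, limma adjusted p = 0.916).

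Summed over the 62 genes, USP transcript was slightly higher with siCDK12. The sum was 944.4, 951.2 and 941.5 FPKM in siCDK12 and 935.3, 923.5 and 910.0 FPKM in siCtrl, or 945.7 ± 4.96 FPKM in siCDK12 and 922.9 ± 12.7 FPKM in siCtrl (SD, n = 3 each). The groups did not overlap in this sum (exact two-sided permutation p = 0.1), whereas the share of the family in the FPKM of the library did, at 0.206% to 0.212% in siCDK12 and 0.197% to 0.207% in siCtrl. USP4 made up 7.22 FPKM of the difference of 22.8 FPKM, or 31.7% of it, ahead of USP10 (2.67 FPKM) and USP3 (2.24 FPKM). The 7 most abundant genes held 53.7% to 54.1% of USP transcript in siCDK12 and 54.3% to 55.2% in siCtrl.

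The USP genes were long, with a median span of 79920 bp and 19 exons, beside 29790 bp and 9 exons over all tested genes with a value. Within the family, length was hardly related to the fold change: Spearman's rho of span and log2 fold change was -0.08 across the 45 genes, beside -0.05 across 11527 genes, where genes of the same 6 libraries are not independent replicates. The called members were spread over chromosomes 3, 6, 7, 11, 15, 17 and X, with USP2 and USP28 both on chromosome 11. Of 4 tested members on chromosome 17, where CDK12 lies, 1 was called, USP43, beside 28.3% of all tested genes.

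Other deubiquitinases and related enzymes moved in both directions. Of 35 tested genes from a list of 41, 3 were higher and 5 lower with siCDK12, 22.9% in all beside 28.3% of all tested genes. This split depended on the scaling. With median-ratio scaling or quantile normalization 1 was higher and 7 lower, where 26.5% and 27.3% of all tested genes were called. Of the listed genes 3, among them USPL1, have the USP fold under another symbol. Fold changes were positive in 17 of the 35 genes and negative in 18. The median log2 fold change was -0.00, beside 0.04 for the USP genes. The difference between the lists was not tested. BRCC3, the deubiquitinase of the BRCA1-A complex that cuts lysine-63 chains, had 13.63, 14.28 and 15.02 FPKM in siCDK12, against 19.34, 18.93 and 18.46 FPKM in siCtrl, without overlap, and fell by 0.40 on the log2 scale (limma adjusted p = 0.000197). USPL1, which has the USP fold but acts on SUMO, fell by 0.29 (limma adjusted p = 0.0092) and was called in every alternative in which it was tested. OTUD6B fell by 0.18 (limma adjusted p = 0.0229), a call lost without siCDK12 replicate 3 (0.0908) and without siCtrl replicate 1 (0.0561) or 2 (0.075).

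The 3 rises among the other families were less certain. OTUD1 was at a log2 fold change of 0.37 (limma adjusted p = 0.0358), ATXN3, the Josephin enzyme mutated in a spinocerebellar ataxia, at 0.21 (0.0446) and EIF3F, a translation initiation subunit of the JAMM family, at 0.11 (0.0491). These calls were lost in 6 of 15, 11 of 15 and 9 of 16 alternatives. With any 1 siCDK12 library left out, or without siCtrl replicate 2, none of these rises remained. Without siCDK12 replicate 3 or siCtrl replicate 2, 2 genes of the list were lower, and without siCDK12 replicate 2 or siCtrl replicate 1, 3 were.

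**Figure D4:**
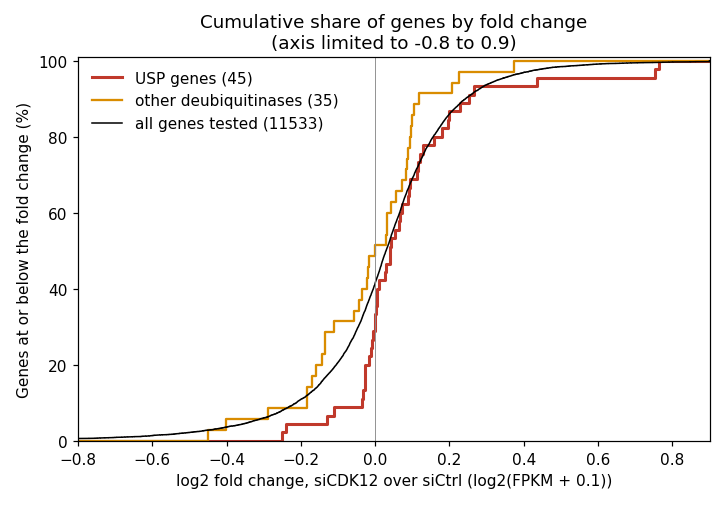
Cumulative share of genes (%) by log2 fold change of siCDK12 over siCtrl, for the 45 tested USP genes (red), 35 other deubiquitinases (orange) and all 11533 tested genes (black), with the axis limited to -0.8 to 0.9. The USP line starts late, with its lowest gene at -0.25, and lies close to the line of all genes from the median of 0.04 upwards.

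Among 29 genes for ubiquitin, its E1 enzymes and known cofactors or substrates of USPs, 5 were higher and 4 lower (31.0%, beside 28.3% of all tested genes; median log2 fold change 0.03). The substrates of USP1 moved in both directions. FANCI had 18.3, 18.83 and 17.58 FPKM in siCDK12, against 26.95, 27.61 and 25.89 FPKM in siCtrl, and fell by 0.55 on the log2 scale (limma adjusted p = 1.76e-05). FANCD2, its partner in interstrand crosslink repair, had 13.9, 14.81 and 14.73 FPKM in siCDK12, against 19.58, 19.72 and 18.78 FPKM in siCtrl, and fell by 0.42 (limma adjusted p = 0.000107). PCNA, the replication clamp that USP1 also acts on, had 123.98, 122.4 and 129.35 FPKM in siCDK12, against 106.21, 98.3 and 111.23 FPKM in siCtrl, and rose by a log2 fold change of 0.25 (limma adjusted p = 0.00241). In each of these 3 genes the groups did not overlap.

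RAD18, the E3 ligase that ubiquitinates PCNA, was higher in siCDK12 with 11.8 ± 0.51 FPKM, against 9.81 ± 0.281 FPKM in siCtrl (SD, n = 3 each; log2 fold change 0.27, limma adjusted p = 0.00367). ENY2, a subunit of the SAGA deubiquitinase module that USP22 needs, was higher with 25.3 ± 1.58 FPKM in siCDK12, against 19.5 ± 1.54 FPKM in siCtrl (SD, n = 3 each, log2 fold change 0.38, limma adjusted p = 0.00153). It was the 1 called of 6 genes listed with this module, not all of which need be subunits of it (16.7%, beside 28.3% of all tested genes). G3BP2, a relative of the USP10 partner G3BP1, was lower by a log2 fold change of -0.16 (limma adjusted p = 0.00759). The count of partner genes called higher was 3 without siCDK12 replicate 2 or 3 or without siCtrl replicate 2.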

How the data were processed

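RNA of 6 LY2 libraries (3 siCDK12, 3 siCtrl), grouped by the sample labels, was sequenced as paired-end reads on the BGISEQ-500 platform. The methods name SOAPnuke for cleaning reads, and Bowtie2, RSEM, DESeq2 and GRCh38 stand in the submitters' processing notes. The authors' table holds FPKM, estimated by RSEM and deposited with 2 decimals. The methods state 1 nominal amount of clean reads for all samples, but FPKM itself is not a depth: whole fragments were not recovered, read counts were not used here, no count model could be fitted and no counting interval is given. Column sums ranged from 448633 to 461038 FPKM, 11488 to 11538 genes reached 1 FPKM in a library, and libraries correlated with r from 0.9955 to 0.9966 within a group and from 0.9897 to 0.9913 between groups.

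Genes averaging 1 FPKM or more were fitted on log2(FPKM + 0.1) by limma 3.58.1 (R 4.3.3), with a variance trend, two-sided, with Benjamini-Hochberg adjustment over all 11533 genes, and called at an adjusted p under 0.05. Fold changes on this scale understate those of low genes. The steps were tested on simulated data. The members, gene lists and roles were chosen with earlier results of these data known. Values per library are given for every called USP gene, the 5 most abundant, the paralogs of called genes and, chosen after their values were seen, the USP genes and WDR48 nearest to or past the threshold. Of the other lists up to 3 called genes in each direction are named. Alternatives were 3 other scalings, pseudocounts of 1 and 0.01, either no filter or a minimum mean of 5 FPKM, other variance estimates, a replicate block and leaving out each library. Positions and promoter windows came from RefSeq (GRCh38.p14), exon counts and overlaps from GENCODE v44. Plots were made in Python 3.11.15 (matplotlib 3.10.9).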

Additional observations from a re-analysis of the deposited data

How the results depend on the processing

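Of the results on 57 single genes, 14 changed their call in at least 1 alternative and 0 reversed. Most of the 57 were not called and lay far from the threshold. Among the called USP genes, only USP4 and USP2 kept their call throughout. USP42, USP3, USP45, USP28, USP51 and USP43 each lost it in at least 1 alternative. USP genes called higher were 7, and 10 with no variance trend, 8 with a pseudocount of 0.01 and 5 with no filter. They were 6 with median-ratio scaling or quantile normalization. With a mean of at least 5 FPKM, where fewer genes were tested, they were 4, and 4 to 6 with 1 library left out. USP genes called lower were 1, and 2 with median-ratio scaling, quantile normalization or no variance trend, 0 with no filter or a minimum mean of 5 FPKM, and 0 to 1 with 1 library left out. Other deubiquitinases called higher were 3, and 1 with median-ratio scaling, quantile normalization, no filter or a minimum mean of 5 FPKM, and 0 to 2 with 1 library left out. Those called lower were 5, and 3 with no filter and 2 to 5 with 1 library left out. Ubiquitin supply and partner genes called higher were 5 and called lower 4, and 3 to 5 and 3 to 4 with 1 library left out. Those called lower were 5 with each of the 3 other scalings, and 3 with no filter or no variance trend. The CDK12 log2 fold change lay between -2.15 and -1.75 in all alternatives, and between -2.15 and -1.99 with 1 library left out. Same-numbered libraries did not deviate together (correlations of -0.00287, 0.0197 and -0.0279), so the numbers were not read as pairs. With the replicate number as a block 6 USP genes were higher and 1 lower, 1 other deubiquitinase was higher and 3 lower, and 5 partner genes were higher and 3 lower. Why calls changed with a setting was not tested. The number of libraries, values given as FPKM without fragment counts and a strandedness not given in the sources used here limit the precision for low genes such as USP2 and USP49, and shared fragments limit it for close paralogs. Groups of 3 libraries are too small for a check of single outlying libraries.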
